A study of Mus musculus with 8 samples.

Results

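The collagen gene family was taken as every symbol in the deposited count table written as Col, a type number, the letter a and a chain number, with 1 row kept per symbol. This gave 43 genes of the 22869 symbols in the table. RNA was sequenced from atrioventricular (AV) cushions, the swellings of the heart tube that form valves and septa, and from ventricles, all from embryos of C57BL/6 mice taken at E12.5. The 8 libraries formed 4 groups of 2, named here by genotype (wild type or mutant) and tissue (cushion or ventricle). Mutants carry the genotype label NfatC1+/-; KLF2fl/fl, in which +/- may mean the loss of 1 Nfatc1 copy or an allele that carries a recombinase. Controls are labelled wild type, although the design text names floxed Klf2 mice beside the mutants. Klf2 encodes a transcription factor of endothelial cells that responds to blood flow, Nfatc1 one of the endocardium, and the series title names cushion endocardial cells and KLF2 as its subject. Nothing in the labels shows that the libraries within a group are separate embryos, so every p-value here reflects the spread among these 8 libraries, which may be technical.

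Collagens are secreted or membrane-bound proteins built from chains that wind into a triple helix, and each type is made from its own set of chains. Fibrillar collagens form the fibrils of connective tissue, type IV builds the network of basement membranes, type VI forms beaded microfilaments, and fibril-associated collagens with interrupted triple helices (FACITs) coat or link fibrils. In the embryonic heart, mesenchymal cells of the cushions lay down fibrillar collagen as the cushions become valves, while type IV lines the endocardium and surrounds cardiomyocytes.

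Library totals ran from 18955733 to 26579215 counts. Klf2 was at 17.3 and 12.9 CPM (a gene's counts relative to a library total that was scaled by the trimmed mean of M-values, TMM) in wild type cushions and at 1.96 and 0.651 CPM in mutant cushions. In ventricles it was at 11.7 and 9.19 CPM in wild type and at 0.735 and 0.625 CPM in mutants, so it was lower in every mutant library. The summed level of 9 markers of cushion mesenchyme was 7869.7 to 16488 CPM in cushions and 1542 to 4503 CPM in ventricles, and that of 10 cardiomyocyte markers was 27571 to 45269 CPM and 37366 to 98368 CPM, with no marker of either list at 0. On the first principal component, with 63.0% of the variance, mutant cushion replicate 2 lay at -22.8 and the other 3 cushion libraries between -54.9 and -46.3.

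Of the 43 collagen genes, 38 had enough counts to be tested among 14940 symbols. Not tested were Col5a3, Col6a4, Col6a5, Col19a1 and Col28a1, with at most 0.782 CPM in any library. Of the 43, 10 genes averaged over 100 CPM and 9, the untested included, averaged under 1 CPM. Levels of different genes can be compared only per transcript length. On that scale Col3a1, the chain of type III collagen, led in 3 of the 4 groups, with a mean of 449 CPM per kilobase in wild type cushions, 430 in mutant cushions and 108 in wild type ventricles. In mutant ventricles Col4a1 led, at 119 CPM per kilobase against 105 for Col3a1. In wild type cushions it was followed by Col5a2 at 122, Col1a2 at 107, Col4a1 at 80.9 and Col18a1 at 80.2 CPM per kilobase. In wild type ventricles the order below Col3a1 was Col4a1 at 89.0, Col5a2 at 58.7, Col4a5 at 46.9 and Col4a2 at 38.4 CPM per kilobase, so that 3 of the 4 were type IV chains.

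**Figure D1:**
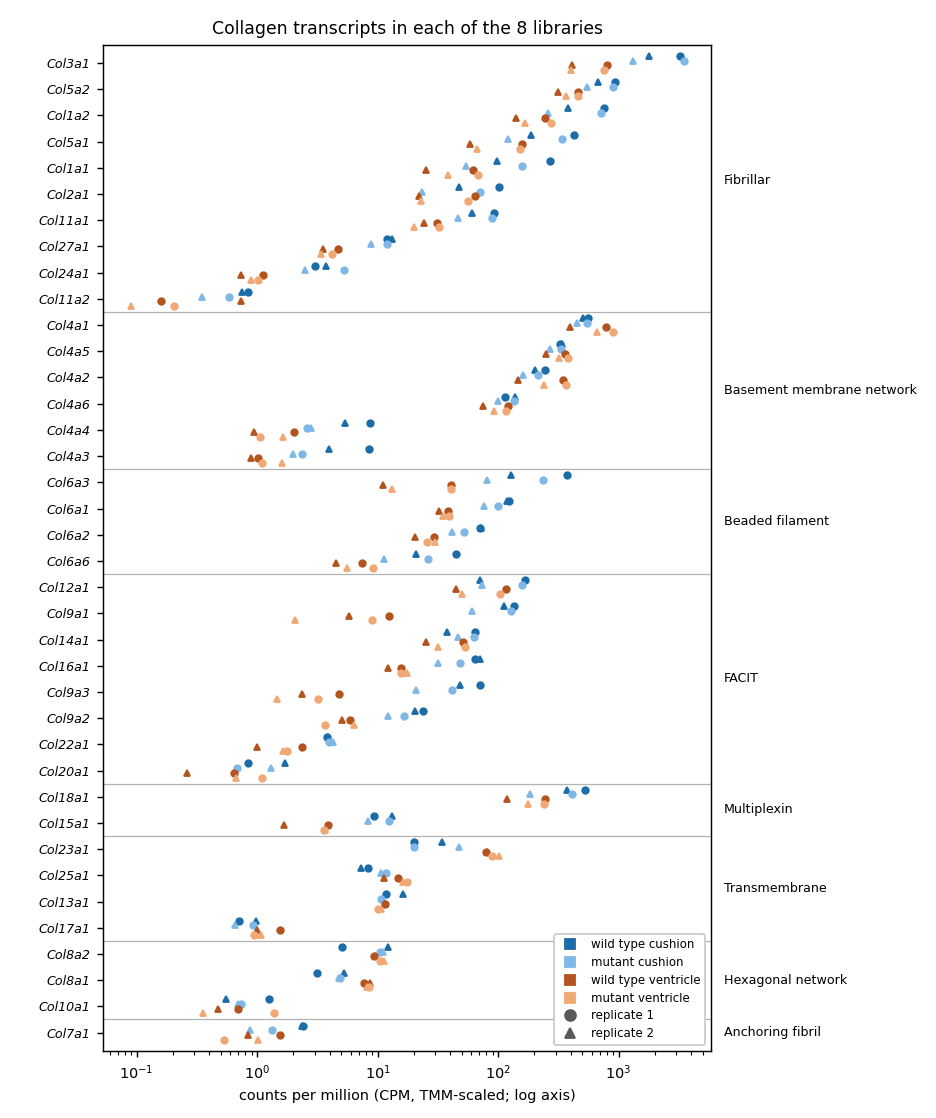
Level of each of the 38 tested collagen genes in CPM (log axis), by class and by mean level, with 1 point for each of the 8 libraries (color for the group, circle for replicate 1, triangle for replicate 2). Cushion points of Col9a1, Col9a3 and Col6a3 lie to the right of all ventricle points, the 4 abundant type IV genes overlap, and Col23a1 lies to the left.

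All collagen genes together took 0.886% and 0.619% of counts in wild type cushions, 0.840% and 0.426% in mutant cushions, 0.380% and 0.228% in wild type ventricles, and 0.393% and 0.304% in mutant ventricles. The 95% Wilson intervals are at most 0.0040 percentage points to either side and cover counting error only. Every cushion library was above every ventricle library, with a mean ratio of 2.09. The exact permutation test of 4 against 4 libraries, two-sided, gave p = 0.0286, the smallest it can give, and 0.0514 after adjustment over 9 sums (this total and 8 classes), so the difference did not pass. With TMM-scaled values, and also without Col1a1, Col1a2 and Col3a1, the exact permutation p was 0.0857. In bulk samples, fewer cells of a type and less RNA per cell cannot be told apart.

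Fibrillar chains made up 66.0% and 57.9% of collagen counts in wild type cushions and 69.0% and 57.8% in mutant cushions, against 37.1% to 44.1% in the 4 ventricle libraries. Type IV chains made up 14.3% and 21.3% in wild type cushions and 14.7% and 24.1% in mutant cushions, against 38.3% to 45.0% in ventricles. For neither class did the tissues overlap. These are shares of counts, not scaled by transcript length, so they do not give the proportions of transcripts. As shares of all counts, the fibrillar sum was 3.13 times as high in cushions as in ventricles, the type VI sum 4.22 times and the FACIT sum 2.87 times, while the sum of transmembrane collagens was 0.484 times as high. Each of these 4 sums had an exact permutation p of 0.0286 and an adjusted p of 0.0514. The ratio was 0.927 for type IV (exact permutation p = 0.600) and 2.03 for the multiplexins (p = 0.0857).

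**Figure D2:**
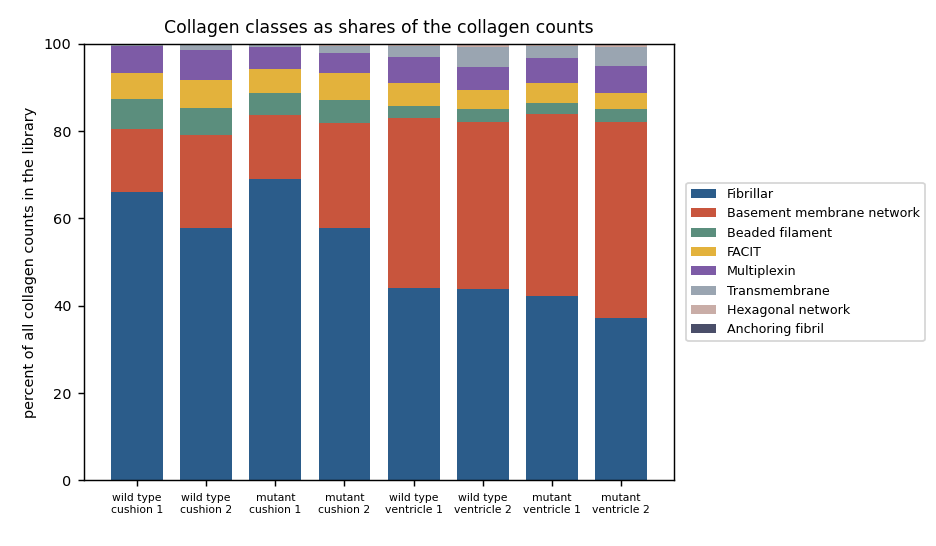
Share of each collagen class in the collagen counts of each of the 8 libraries, in percent (stacked bars to 100%, without the single gene of type 28). The fibrillar part runs from 57.8% to 69.0% in cushions and from 37.1% to 44.1% in ventricles, and the basement membrane part from 14.3% to 24.1% and from 38.3% to 45.0%.

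The first question was which collagens differ between cushion and ventricle. In wild type hearts 15 of the 38 tested genes were higher in cushion, beside 12.46% of all genes, and 3 were lower, beside 10.6%, by edgeR's quasi-likelihood test with Benjamini-Hochberg adjustment over all genes and a threshold of 0.05. In mutant hearts 9 were higher, beside 6.16%, all of them among the 15, and 0 were lower, beside 3.26%. At an unadjusted p under 0.05 by edgeR 3 were lower (10.7% of all genes), and DESeq2 called 1 lower. The mutant contrast compares other libraries than the wild type contrast. Both come from the same fit and share its estimate of the spread, so they are not independent. The median log2 fold change over the tested members was 1.39 in wild type and 0.78 in mutant, beside 0.01 over all genes in both. Across 14748 genes the Spearman rho of this fold change with the GC content of the transcript was 0.385 in wild type and -0.162 in mutant. With the replicate number as a block the counts were 24 higher and 3 lower in wild type (21.2% and 20.1% of all genes) and 20 higher and 5 lower in mutant (13.4% and 10.5%), and the 20 were all among the 24. Over both genotypes, 17 of the 38 genes had all 4 cushion libraries above all 4 ventricle libraries, beside 16% of all genes, and Col8a1 and Col23a1 had all ventricle libraries above, beside 13.2%.

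Single libraries moved these counts. Without wild type ventricle replicate 2 the wild type count of higher genes was 6, and the count of lower genes was 0 without wild type cushion replicate 1 or either wild type ventricle library and 1 without wild type cushion replicate 2. The mutant count of higher genes was 1 without mutant cushion replicate 1, 10 without mutant cushion replicate 2, 6 without wild type cushion replicate 1, 5 without mutant ventricle replicate 1 and 3 without mutant ventricle replicate 2, and the count of lower genes was 1 without wild type cushion replicate 1 or mutant cushion replicate 2. Of the 18 calls in wild type 6 were kept whichever library was left out (Col6a1, Col6a2, Col9a2, Col9a3, Col16a1 and Col27a1), and of the 9 in mutants 1 was (Col6a1). With the block 23 of 27 and 14 of 25 were kept. Markers of cushion mesenchyme moved with the tissue, since 6 of 9 were higher in wild type cushion and 5 of 9 in mutant cushion with a median log2 fold change of 3.02 and 2.93, and their part in the collagen differences was not tested.

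**Figure D3:**
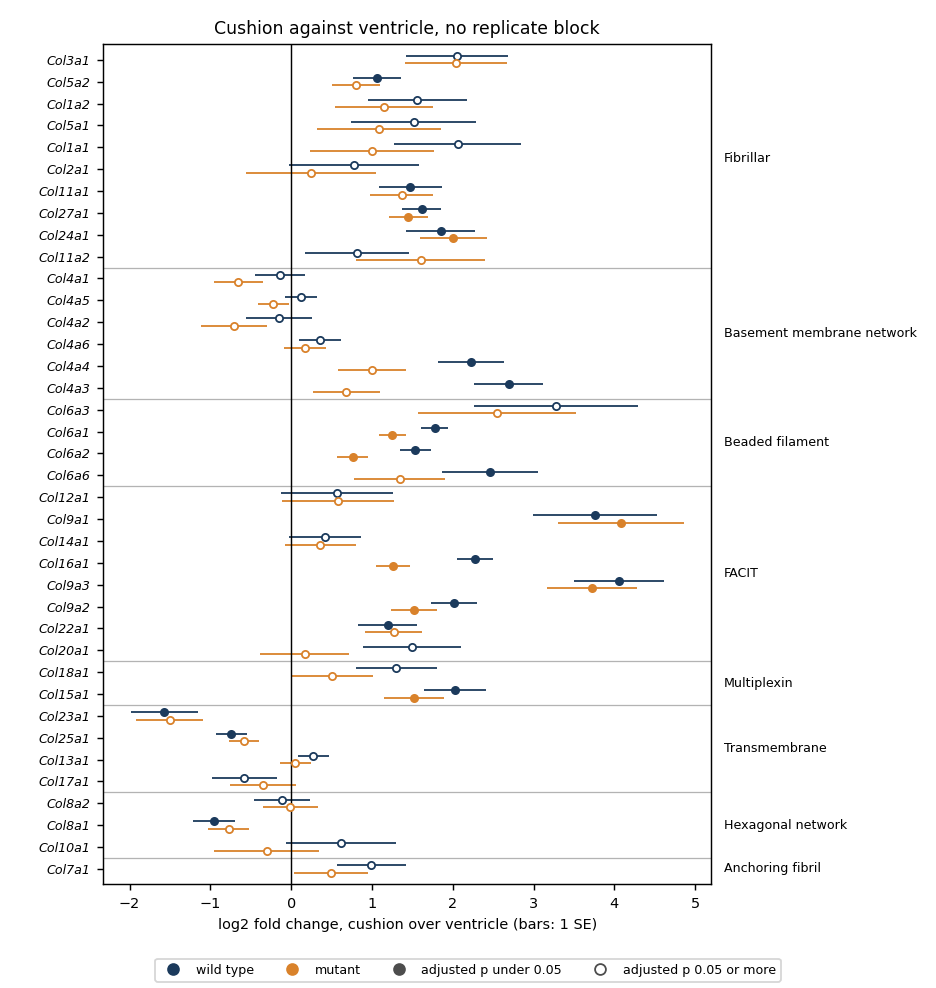
Log2 fold change of cushion over ventricle for the 38 tested collagen genes in wild type (dark) and mutant (orange) hearts from the fit without a replicate block, with bars of 1 SE and filled points for an adjusted p under 0.05. Col9a1 and Col9a3 lie farthest to the right in both genotypes, at 3.76 and 4.06 in wild type, and Col23a1 farthest to the left, at -1.57.

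Fibrillar collagens leaned to the cushion, with a positive log2 fold change in 10 of 10 tested genes in either genotype. Col3a1 was at 3217 and 1785 CPM in wild type cushions, 3476 and 1314 in mutant cushions, 797 and 409 in wild type ventricles and 756 and 407 in mutant ventricles. All cushion values lay above all ventricle values, yet replicates of a group differed by 1.80 to 2.65 times. Its log2 fold change was 2.05 ± 0.63 (SE) in wild type, with an edgeR adjusted p of 0.0654, and 3.2e-07 with the replicate block. In mutants it was 2.04 ± 0.63, with an edgeR adjusted p of 0.109, and 8.0e-07 with the block. Col1a2, a chain of type I collagen, the main collagen of tendon and bone, was at 765 and 379 CPM in wild type cushions, 714 and 262 in mutant cushions, 247 and 141 in wild type ventricles and 273 and 168 in mutant ventricles. Mutant cushion replicate 2 was below mutant ventricle replicate 1, and every other cushion value was above every ventricle value. The promoters of these abundant fibrillar genes, from RefSeq on build GRCm38.p6, are shown because both genes had the tissue difference called only with the replicate block while their windows differ in base composition. Each window holds 250 bases before and 50 after the annotated start, 5′ to 3′. In Col3a1 (chr1:45311288-45311587, plus strand) capitals mark TATAAA, whose first base lies at position -117 relative to the start, and in Col1a2 (chr6:4505368-4505667, plus strand) capitals mark CCAAT and its reverse complement ATTGG.
Col3a1: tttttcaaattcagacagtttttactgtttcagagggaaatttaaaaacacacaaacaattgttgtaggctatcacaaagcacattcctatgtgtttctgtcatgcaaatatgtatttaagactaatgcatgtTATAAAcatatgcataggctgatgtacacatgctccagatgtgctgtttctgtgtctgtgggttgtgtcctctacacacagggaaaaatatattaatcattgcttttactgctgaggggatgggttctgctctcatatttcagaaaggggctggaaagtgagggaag
Col1a2: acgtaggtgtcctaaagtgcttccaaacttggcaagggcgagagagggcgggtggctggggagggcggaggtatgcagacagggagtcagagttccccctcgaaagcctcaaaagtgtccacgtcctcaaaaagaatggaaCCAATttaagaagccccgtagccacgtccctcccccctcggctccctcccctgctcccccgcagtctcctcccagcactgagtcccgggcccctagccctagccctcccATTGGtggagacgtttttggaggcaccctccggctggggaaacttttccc
The Col3a1 window is 37.7% G and C and the Col1a2 window 61%. On either strand, TATAAA occurs in 5 of 38 collagen windows (13.2%; 35 genes matched) and in 13.6% of all 32851 promoter windows, and CCAAT in 13 of 38 (34.2%) and in 37.4%.

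Another 4 fibrillar genes passed in wild type without the block, and a pair of them in both genotypes. Col5a2, a type V chain that takes part in starting fibrils, was at 939.8 and 681 CPM in wild type cushions, 895 and 543 in mutant cushions, 463 and 315 in wild type ventricles and 461 and 367 in mutant ventricles. The tissues did not overlap, and the wild type log2 fold change of 1.06 ± 0.30 had an edgeR adjusted p of 0.0385. The call was lost without either wild type cushion library (0.171 and 0.0570), wild type ventricle replicate 2 (0.208) or mutant ventricle replicate 1 (0.0520). Col11a1, which forms mixed fibrils with type V and type II, had a log2 fold change of 1.48 ± 0.39 in wild type (edgeR adjusted p = 0.0385), lost without any 1 of the wild type libraries (0.0722 to 0.172). Col24a1 and Col27a1, minor fibrillar chains, were low, at 2.52 to 5.25 CPM and 8.77 to 13.3 CPM in cushions and at 0.739 to 1.12 CPM and 3.39 to 4.70 CPM in ventricles. Both passed in both genotypes by edgeR, Col24a1 with adjusted p = 0.0175 and 0.0206 and Col27a1 with 0.0036 and 0.0099. In wild type Col24a1 lost the call without cushion replicate 2 (0.0755) or ventricle replicate 2 (0.137). In mutants both genes lost it without mutant cushion replicate 1 (0.147 and 0.0776) or mutant ventricle replicate 2 (0.106 and 0.0594), and Col24a1 without mutant ventricle replicate 1 as well (0.0688). With the block Col1a1, Col1a2, Col3a1 and Col5a1 passed in both genotypes as well and Col2a1 in wild type, while Col11a2, at 0.0893 to 0.845 CPM, passed in neither.

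All 4 tested type VI genes had every cushion library above every ventricle library, beside 16% of all genes. Col6a3, whose long chain joins the others into the type VI filament, was at 373 and 129 CPM in wild type cushions, 236 and 81.5 in mutant cushions, 40.7 and 11.1 in wild type ventricles and 41.0 and 13.2 in mutant ventricles. Cushions lay above ventricles throughout, and in each group replicate 1 was 2.89 to 3.67 times replicate 2. The log2 fold change was 3.28 ± 1.01 in wild type and 2.55 ± 0.98 in mutant, with edgeR adjusted p of 0.0667 and 0.178, and of 9.9e-10 and 8.5e-09 with the block. Col6a1, a second chain of the filament, was at 123 and 119 CPM in wild type cushions, 100.3 and 76.4 in mutant cushions, 38.3 and 32.3 in wild type ventricles and 38.9 and 35.2 in mutant ventricles. This gene varied little between replicates, and its log2 fold changes of 1.78 ± 0.16 and 1.25 ± 0.16 had edgeR adjusted p of 0.00056 and 0.0035. Col6a2 passed in both genotypes, at 1.54 ± 0.20 and 0.76 ± 0.19 (edgeR adjusted p = 0.0019 and 0.0441). The mutant call for Col6a2 was lost without either mutant ventricle library (0.171 and 0.103), without mutant cushion replicate 1 (0.278) and without either wild type cushion library (0.0748 and 0.0601). Col6a6 was at 45.0 and 20.7 CPM in wild type cushions, 26.2 and 11.2 in mutant cushions, and 4.54 to 9.15 CPM in ventricles, with all cushion libraries above. Its wild type log2 fold change of 2.46 ± 0.59 (edgeR adjusted p = 0.0315) lost the call without wild type cushion replicate 1 (0.112), either wild type ventricle library (0.0585 and 0.136) or mutant ventricle replicate 2 (0.0525). Its 2 rows in the table differ, the lower holding 58.5% of the counts of the higher.

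Type IX chains are FACITs that decorate type II fibrils in cartilage, and 2 of them, Col9a1 and Col9a3, had the largest tissue differences among the genes called in both genotypes, in the fit without the block and in the fit with it. Col9a1 was at 136 and 112 CPM in wild type cushions, 128 and 61.1 in mutant cushions, 12.51 and 5.81 in wild type ventricles and 9.07 and 2.05 in mutant ventricles. Col9a3 was at 71.5 and 48.2 CPM in wild type cushions, 41.7 and 21.02 in mutant cushions, 4.81 and 2.38 in wild type ventricles and 3.23 and 1.47 in mutant ventricles. Neither gene's tissues came near each other, and for both the mutant cushion values were under the wild type value of the same replicate number. The log2 fold changes were 3.76 ± 0.76 and 4.08 ± 0.78 for Col9a1 (edgeR adjusted p = 0.0212 and 0.0310) and 4.06 ± 0.56 and 3.72 ± 0.56 for Col9a3 (0.0056 and 0.0134). The wild type call for Col9a1 was lost without wild type cushion replicate 1 (0.102), wild type cushion replicate 2 (0.0829) or wild type ventricle replicate 2 (0.0877), and that for Col9a3 was kept whichever library was left out. Without mutant cushion replicate 1 all 3 type IX genes lost the mutant call (0.165, 0.102 and 0.0611 for Col9a1, Col9a2 and Col9a3). Without mutant ventricle replicate 2 Col9a1 and Col9a3 did (0.103 and 0.0898), and Col9a1 also did without either wild type cushion library (0.0870 and 0.0735). Col9a2 passed in both genotypes at 2.02 ± 0.28 and 1.52 ± 0.28. Col2a1, the chain of the type II fibrils that type IX decorates, overlapped between tissues, at 23.5 to 101 CPM in cushions and 21.97 to 64.7 CPM in ventricles.

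Other FACITs fell into a called and an overlapping group. Col22a1, at 3.803 to 4.255 CPM in cushions and 1.003 to 2.35 CPM in ventricles, was called in wild type without the block. That call was lost without any 1 library other than wild type ventricle replicate 1. Col20a1, at 0.264 to 1.70 CPM, overlapped between tissues. Col16a1 was at 64.1 and 70.6 CPM in wild type cushions, 48.1 and 31.7 in mutant cushions, 15.6 and 12.3 in wild type ventricles and 15.6 and 17.7 in mutant ventricles. All cushion values were above, and the log2 fold changes of 2.27 ± 0.22 and 1.26 ± 0.21 had edgeR adjusted p of 0.00069 and 0.0102, the latter lost without mutant cushion replicate 1 (0.0650) or mutant ventricle replicate 1 (0.0516). Col12a1, which binds fibrils in tissue under tension, was at 169 and 71.5 CPM in wild type cushions and at 117 and 45.1 in wild type ventricles, and Col14a1, a related chain, at 64.4 and 37.4 and at 51.0 and 25.2. For both genes the tissues overlapped and the call was made only with the block (edgeR adjusted p = 0.0010 and 0.0173 in wild type, and 0.0019 and 0.0417 in mutant). The mutant call of both was lost without mutant ventricle replicate 1 (0.0609 and 0.187). That of Col14a1 was also lost without any other library but mutant cushion replicate 1 and wild type ventricle replicate 2 (0.0589 to 0.427), and in wild type without either cushion library or ventricle replicate 2 (0.0801 to 0.229). The multiplexins, basement membrane collagens that carry heparan or chondroitin sulfate chains, split in the same way. Col15a1 passed in both genotypes at 2.02 ± 0.38 and 1.52 ± 0.37 (edgeR adjusted p = 0.0091 and 0.0390), but not without wild type ventricle replicate 2 in wild type (0.0640), nor without wild type cushion replicate 1 (0.0521), mutant cushion replicate 1 (0.241) or either mutant ventricle library (0.136 and 0.176) in mutant. Col18a1, whose end fragment is endostatin, was at 526 and 371 CPM in wild type cushions, 413 and 183 in mutant cushions, 246 and 118 in wild type ventricles and 241 and 177 in mutant ventricles, so that mutant cushion replicate 2 fell within the ventricle range. It passed with the block in wild type (1.38 ± 0.18, edgeR adjusted p = 0.00011) and not in mutant (0.42 ± 0.17, 0.107).

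Among type IV chains the abundant and the rare pairs differed. Col4a1 and Col4a2, the chains of nearly all basement membranes, lie head to head on chromosome 8. Col4a1 was at 561 and 509.8 CPM in wild type cushions, 544 and 456 in mutant cushions, 782 and 395 in wild type ventricles and 906 and 669 in mutant ventricles. Col4a2 was at 246 and 201, 213 and 161, 347 and 148, and 369 and 243 CPM in the same order. Tissues overlapped for both, and neither passed in wild type, where the log2 fold changes were -0.14 ± 0.30 and -0.15 ± 0.41 (edgeR adjusted p = 0.775 and 0.824). With the block both fell in mutant cushion against mutant ventricle, by 0.64 ± 0.17 and 0.69 ± 0.20 on the log2 scale (edgeR adjusted p = 0.0177 and 0.0300). Both calls were lost without mutant cushion replicate 1 or either mutant ventricle library (0.0762 to 0.231), and that of Col4a2 without mutant cushion replicate 2 (0.0619). Their promoter windows overlap by 78 bases. They are shown because the counts of the pair kept a narrow ratio over the libraries, given with the chain ratios. Any part of the shared bases in that ratio was not tested. Each window is read 5′ to 3′ along its own gene, from RefSeq on build GRCm38.p6, with the shared bases in capitals, Col4a1 at chr8:11312777-11313076 on the minus strand and Col4a2 at chr8:11312555-11312854 on the plus strand.
Col4a1: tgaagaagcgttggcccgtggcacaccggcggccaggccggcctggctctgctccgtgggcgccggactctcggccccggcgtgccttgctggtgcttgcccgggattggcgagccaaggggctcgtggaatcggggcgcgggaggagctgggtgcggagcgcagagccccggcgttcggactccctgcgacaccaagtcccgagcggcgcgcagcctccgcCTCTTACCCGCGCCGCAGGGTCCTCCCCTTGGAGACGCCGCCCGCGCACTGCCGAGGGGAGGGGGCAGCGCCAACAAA
Col4a2: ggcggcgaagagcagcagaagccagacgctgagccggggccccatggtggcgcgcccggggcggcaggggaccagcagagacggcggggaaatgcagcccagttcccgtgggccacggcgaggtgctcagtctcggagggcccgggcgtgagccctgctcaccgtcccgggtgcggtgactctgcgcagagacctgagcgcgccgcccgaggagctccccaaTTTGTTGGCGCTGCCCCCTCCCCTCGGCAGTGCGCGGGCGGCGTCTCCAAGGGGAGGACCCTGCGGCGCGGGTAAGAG
The windows are 74% and 73.7% G and C. On either strand, GGGCGG occurs 1 time in the Col4a1 window and 3 times in the Col4a2 window, and in 23 of 38 collagen windows (60.5%) against 35.7% of all promoter windows.

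Col4a5 and Col4a6, neighbours on the X chromosome, were at 253 to 380.5 CPM and 75.6 to 139 CPM over all libraries, with overlapping tissues and no call in either fit. Col4a3 and Col4a4, neighbours on chromosome 1 and chains of the kidney filter's basement membrane, were rare and behaved otherwise. Col4a3 was at 8.50 and 3.96 CPM in wild type cushions, 2.35 and 1.997 in mutant cushions, 1.02 and 0.898 in wild type ventricles and 1.10 and 1.61 in mutant ventricles. Col4a4 was at 8.69 and 5.34, 2.60 and 2.82, 2.03 and 0.9504, and 1.06 and 1.65 CPM in the same order. In both genes the wild type cushions stood above every other library. Their wild type log2 fold changes of cushion over ventricle were 2.69 ± 0.43 and 2.23 ± 0.41 (edgeR adjusted p = 0.0042 and 0.0078), rising to 0.0606 and 0.0744 without wild type ventricle replicate 2. In mutants the values were 0.68 ± 0.42 and 1.0 ± 0.42 (0.358 and 0.177).

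A few collagens were higher in ventricle. Col23a1, a transmembrane collagen, was at 20.1 and 34.0 CPM in wild type cushions, 20.2 and 47.0 in mutant cushions, 80.2 and 81.0 in wild type ventricles and 89.7 and 101 in mutant ventricles. Ventricles lay above cushions throughout, with a wild type log2 fold change of -1.57 ± 0.41 (edgeR adjusted p = 0.0395). Leaving out any wild type library (0.0732 to 0.167) or either mutant ventricle library (0.0697 and 0.0726) took this above the threshold. Col25a1, a transmembrane collagen of neurons, was at 8.36 and 7.24 CPM in wild type cushions and at 14.8 and 11.3 in wild type ventricles (-0.74 ± 0.19, edgeR adjusted p = 0.0253). Col8a1, a short-chain collagen of endothelial and valve matrix, was at 3.15 and 5.26 CPM in wild type cushions and at 7.75 and 8.61 in wild type ventricles (-0.95 ± 0.26, adjusted p = 0.0305). Leaving out any wild type library ended the call for Col25a1 (0.0517 to 0.142), and leaving out cushion replicate 1 or either ventricle library that for Col8a1 (0.0717 to 0.157). In mutants these 3 genes had log2 fold changes of -1.51, -0.58 and -0.78, which passed only with the block (edgeR adjusted p = 0.0143, 0.0147 and 0.0209). Without mutant ventricle replicate 1 Col23a1 and Col8a1 did not pass in that fit (0.144 and 0.143), nor did Col8a1 without mutant cushion replicate 2 (0.11) or Col25a1 without mutant cushion replicate 1 (0.0830) or mutant ventricle replicate 2 (0.126). Col13a1, at 10.1 to 16.3 CPM, Col8a2, at 5.12 to 12.3 CPM, and Col7a1, the anchoring fibril chain of skin, at 0.531 to 2.39 CPM, overlapped between tissues. Col10a1 and Col17a1, markers of growth plate cartilage and of epithelial anchoring, reached at most 1.39 and 1.55 CPM.

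Different chains can assemble into 1 molecule, and the ratios of their counts were followed across libraries for 7 pairs. Another pair, Col11a1 to Col11a2, fell to 2 counts in a library and was not used. Col4a1 to Col4a2 lay between 2.25 and 2.83 in all 8 libraries while Col4a1 itself ran from 395 to 906 CPM. The mean log2 ratio differed by 0.01 between tissues (exact permutation test, two-sided, p = 0.971). Col1a1 to Col1a2 ran from 0.179 to 0.352 and Col5a1 to Col5a2 from 0.184 to 0.456, with overlapping tissues (exact permutation p = 0.429 and 0.314). For 4 pairs the tissues did not overlap, each with an exact permutation p of 0.0286, the smallest possible, and an adjusted p of 0.050 over the 7 pairs, which does not pass. Col9a1 to Col9a2 was 5.01 to 7.69 in cushions and 0.319 to 2.49 in ventricles. Col6a3 to Col6a1 was 1.07 to 3.04 and 0.344 to 1.06, Col6a1 to Col6a2 1.65 to 1.93 and 1.18 to 1.59, and Col8a1 to Col8a2 0.426 to 0.615 and 0.717 to 0.906.

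**Figure D4:**
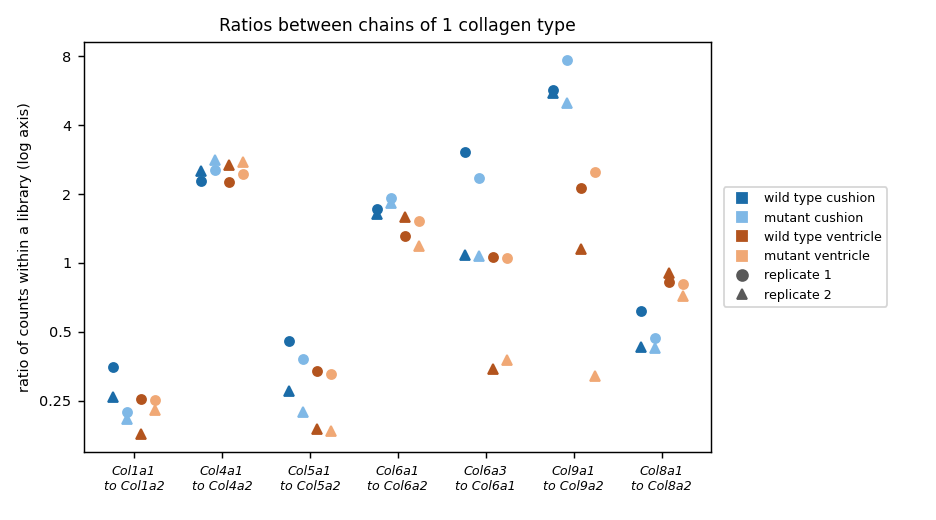
Ratio of the counts of 2 chains of 1 collagen type within each library (log axis), for 7 pairs, with color for the group and shape for the replicate number. Col4a1 to Col4a2 stays between 2.25 and 2.83, while Col9a1 to Col9a2 runs from 0.319 to 7.69 with cushions above ventricles.

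The second question was what the mutation does to collagen transcripts in the cushion. This contrast shares the wild type cushion libraries with the wild type tissue contrast above. No collagen gene was called in mutant against wild type cushion, beside 0% of all 14940 genes in either direction, by edgeR's quasi-likelihood test without the replicate block. Klf2 itself was not called there either, at a log2 fold change of -3.54 ± 0.42 (edgeR adjusted p = 0.145). With the block its edgeR adjusted p was 2.9e-05. The absence of calls without the block therefore does not show that collagens were unchanged. At an unadjusted p under 0.05, 7 members were lower and 1 was higher (5.23% and 6.14% of all genes), and DESeq2 called 0. The log2 fold change was negative in 31 of 38 members, with a median of -0.31 beside -0.01 over all genes. In 11 members both mutant cushion libraries were below both wild type libraries, beside 23.9% of all genes, and in Col22a1 and Col25a1 both were above, beside 24.5%.

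With the replicate number as a block 5 collagens were lower in mutant cushion, beside 0.569% of all genes, and 0 were higher, beside 0.295%. They were Col9a3 (-0.99 ± 0.14, adjusted p = 0.0063), Col6a3 (-0.66 ± 0.11, 0.0146), Col2a1 (-0.76 ± 0.13, 0.0176), Col1a1 (-0.79 ± 0.14, 0.0261) and Col6a6 (-0.82 ± 0.16, 0.0279), all by edgeR. Col1a1, the major type I chain, was at 269 and 97.9 CPM in wild type cushions and at 159 and 54.8 in mutant cushions. Col2a1 was at 101 and 47.8 CPM in wild type cushions and at 71.2 and 23.5 in mutant cushions. For these 5 genes each mutant library was below the wild type library of the same number, while for Col1a1, Col2a1, Col6a3 and Col6a6 mutant replicate 1 was above wild type replicate 2. In the fit without the block Col1a1 and Col6a3 turned to 0.11 and 0.28 without wild type cushion replicate 1.

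The count of 5 changed when single libraries were left out and when base composition was corrected for. It rose without mutant cushion replicate 1 or either mutant ventricle library. It fell without either wild type cushion library or wild type ventricle replicate 2. None of the 5 calls was kept whichever library was left out. How calls over all genes moved in those fits is not given, so these changes cannot be set against other genes. Across 14748 genes the cushion fold change ran with the GC content of the transcript (Spearman rho -0.607), and 34 of 38 tested members have a GC content above the median of all genes (medians 55.4% and 49.6%). After correction for GC content and transcript length together with the block, 1 collagen was called, beside 0.319% of all genes, which was Col9a3 at -0.64 ± 0.11 (edgeR adjusted p = 0.0323). In the block fit the call for Col9a3 was lost without wild type cushion replicate 2 alone (edgeR adjusted p = 0.188). Col6a3 lost it without either wild type cushion library (0.0690 and 0.262), Col2a1 without wild type cushion replicate 2 (0.30) or wild type ventricle replicate 2 (0.0707), and Col6a6 and Col1a1 without either wild type cushion library (0.140 to 0.188 and 0.0729 to 0.138), mutant cushion replicate 2 (0.0749 and 0.0520) or wild type ventricle replicate 2 (0.0734 and 0.0736), and Col1a1 also without wild type ventricle replicate 1 (0.0553). All 9 markers of cushion mesenchyme also had a negative fold change in mutant cushion, with a median of -0.35 and 0 called, and their summed level was 16488 and 8063 CPM in wild type and 12399 and 7869.7 CPM in mutant. Neural crest and neural markers summed to 41.0 and 41.6 CPM in wild type cushions and 26.6 and 24.8 in mutant cushions. Epicardial markers summed to 191 and 233 against 330 and 261 CPM, and the other lists overlapped between genotypes. With the block 1 of 6 epicardial genes, Tbx18, was called higher, beside 0.295% of all genes. Without it the fold change was positive in 6 of 6 leukocyte genes and negative in 10 of 10 cardiomyocyte genes. The part of these markers in the collagen values was not tested.

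In the block fit 3 members that were not called had larger fold changes than the 5. These were Col4a3 at a log2 fold change of -1.47 ± 0.33, Col4a4 at -1.33 ± 0.32 and Col7a1 at -1.13 ± 0.39 in mutant against wild type cushion (edgeR adjusted p = 0.0541, 0.0635 and 0.115). Without the block they were at -1.51 ± 0.39, -1.37 ± 0.38 and -1.12 ± 0.42 (0.435 for each). In all 3 both mutant cushion libraries were below both wild type libraries, beside 23.9% of all genes. Values of Col4a3 and Col4a4 are given above. Col7a1 was at 2.39 and 2.37 CPM in wild type cushions and at 1.32 and 0.868 in mutant cushions. Col16a1 was at -0.76 ± 0.21 without the block and -0.78 ± 0.17 with it (edgeR adjusted p = 0.435 and 0.0574). On the other side, in the fit without the block, Col25a1 was at 0.52 ± 0.19 (0.435). Col3a1 and Col4a1, the leading members per length, were at -0.06 ± 0.61 and -0.10 ± 0.30 in that fit.

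**Figure D5:**
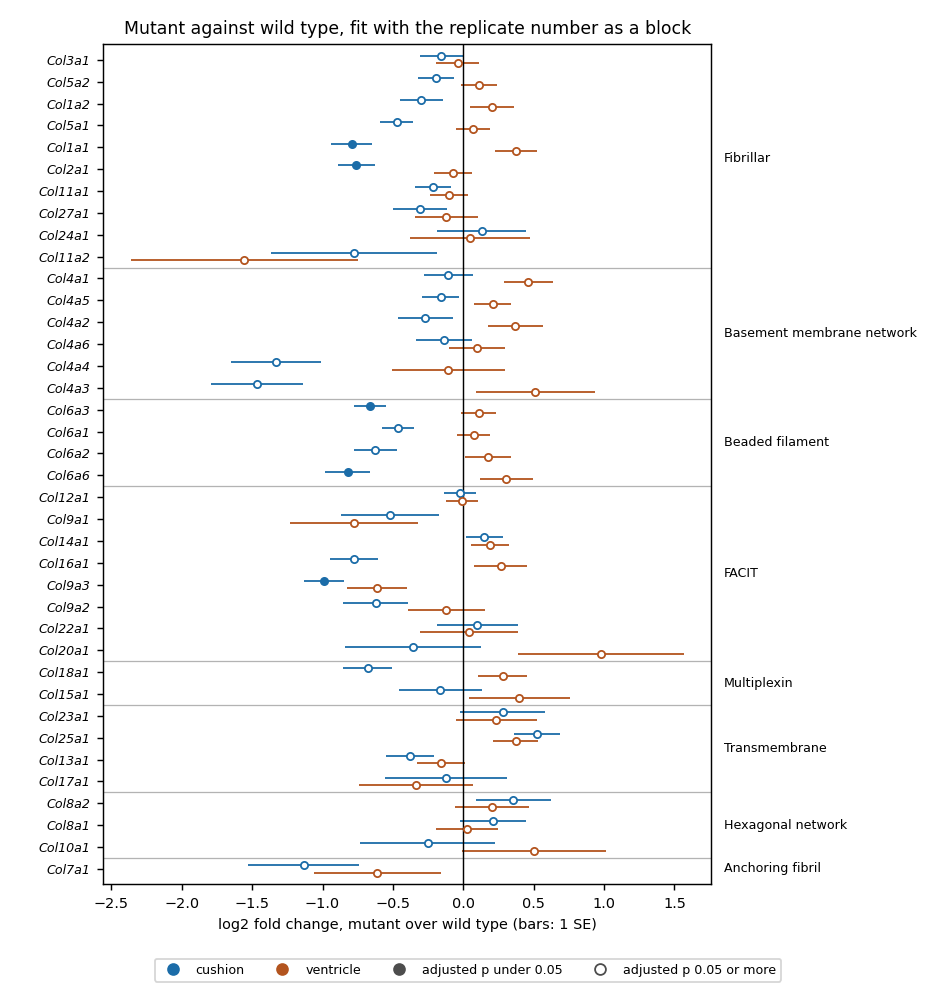
Log2 fold change of mutant over wild type for the 38 tested collagen genes in cushion (blue) and ventricle (brown) from the block fit, with bars of 1 SE and filled points for an adjusted p under 0.05. The 5 filled points, all in cushion and between -0.99 and -0.66, are Col1a1, Col2a1, Col6a3, Col6a6 and Col9a3.

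In the ventricle no collagen was called in mutant against wild type, beside 0% of all genes without the block and 0.00669% lower with it, and DESeq2 called 0. Klf2 was at -3.93 ± 0.45 without the block and not called (edgeR adjusted p = 0.269), and was called with it (edgeR adjusted p = 4.6e-05). At an unadjusted p under 0.05 by edgeR, 0 members passed without the block (1.18% higher and 1.1% lower among all genes), and 3 were higher and 1 lower with it (3.41% and 3.87%). These were Col1a1 (0.37 ± 0.15), Col4a1 (0.46 ± 0.17) and Col25a1 (0.37 ± 0.16) on the higher side and Col9a3 (-0.61 ± 0.21) on the lower, each with an edgeR adjusted p of 0.674 in the block fit. Both mutant ventricle libraries were above both wild type libraries in 6 members, beside 13.1% of all genes, and below in 1, beside 14.6%. In the fit without the block the log2 fold change was positive in 25 of 38 members, with a median of 0.08. Across 14748 genes the fold change of that fit ran with GC content (Spearman rho 0.458). In that fit, among members averaging at least 1 CPM, the smallest p-values belonged to Col25a1 (0.36 ± 0.18), Col4a1 (0.42 ± 0.30) and Col16a1 (0.26 ± 0.22) among the positive genes and to Col7a1 (-0.62 ± 0.46), Col9a3 (-0.60 ± 0.59) and Col9a1 (-0.71 ± 0.75) among the negative, each with an edgeR adjusted p of 0.998. Col7a1 turned to 0.03 with the block and without mutant ventricle replicate 1, and Col9a3 to 0.02 without wild type ventricle replicate 1.

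Whether the genotype difference itself differed between tissues was tested as an interaction, and no collagen passed, beside 0% of all genes, with or without the block or by DESeq2. At an unadjusted p under 0.05 without the block, 4 members had a negative interaction, a smaller mutant over wild type ratio in cushion than in ventricle, and 0 a positive one, beside 4.96% and 6.93% of all genes. With the block 14 were negative and 0 positive, beside 11.3% and 12.8%. Across 14748 genes the interaction of the fit without the block ran with GC content (Spearman rho -0.657). After correction for GC content and transcript length with the block, 7 members were negative and 0 positive at an unadjusted p under 0.05. The median interaction of the members was then -0.06 in place of -0.44. Shares of all genes at that threshold are not given for the corrected fit. The 4 without the block were Col4a3 (-2.01 ± 0.60), Col16a1 (-1.01 ± 0.30), Col6a2 (-0.78 ± 0.27) and Col6a1 (-0.52 ± 0.23), with edgeR adjusted p of 0.415 to 0.418 and of 0.0852 to 0.0939 with the block. The block fit called members when either mutant cushion library, mutant ventricle replicate 1 or wild type ventricle replicate 1 was left out. How calls over all genes moved in those fits is not given. On the positive side, among members averaging at least 1 CPM, the smallest p-values belonged to Col25a1 (0.16 ± 0.26), Col8a1 (0.18 ± 0.36) and Col9a1 (0.32 ± 1.0). Col25a1 was at -0.07 without wild type ventricle replicate 1, Col8a1 at -0.17 without wild type cushion replicate 1, and Col9a1 at -0.32 to -0.38 without mutant cushion replicate 1, wild type ventricle replicate 1 or mutant ventricle replicate 2.

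Averaged over both tissues, 0 collagens were called without the block, beside 0.0134% of all genes lower and 0% higher, and DESeq2 called 0. At an unadjusted p under 0.05 by edgeR, 2 were lower and 1 higher (1.5% and 1.36% of all genes). Klf2 was called here without the block, at -3.73 ± 0.31 (edgeR adjusted p = 0.0203). Its call was lost in 5 of the 8 fits with 1 library left out. With the block Col9a3 was lower, beside 0.1% of all genes, and 0 members were higher, beside 0.107%. It was at -0.80 ± 0.13 (edgeR adjusted p = 0.0201). It was also called after the correction for GC content and length (-0.67 ± 0.11, adjusted p = 0.0391, beside 0.108% of all genes). In the block fit the call was lost without wild type cushion replicate 2 (0.0881), wild type ventricle replicate 1 (0.351) or wild type ventricle replicate 2 (0.211).

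The replicate number also separated many collagens. In 19 of 38 members replicate 1 was above replicate 2 in all 4 groups, beside 19.1% of all genes, and in 8 it was over 1.5 times as high in all 4, beside 1.93%. These 8 were Col1a1, Col1a2, Col2a1, Col3a1, Col5a1, Col6a3, Col6a6 and Col12a1. Col5a1, for example, was at 429 and 187 CPM in wild type cushions, 342 and 122 in mutant cushions, 157 and 59.0 in wild type ventricles and 151 and 67.5 in mutant ventricles. The replicate term of the block fit called 15 members higher in replicate 1 and 0 lower, beside 11.4% and 4.07% of all genes, the largest being Col6a3 at 1.63 ± 0.08 (edgeR adjusted p = 2.4e-07). Across 14748 genes this term ran with transcript length (Spearman rho 0.435), and the median transcript length was 5989 bases in members and 3366 in all genes tested. After correction for GC content and length the median of the members was 0.14 in place of 0.33. Col8a2, Col13a1 and Col23a1 were lower in replicate 1 in all 4 groups. What the replicate number marks is not given in the labels.

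Genes that fold, process, crosslink or bind collagens were, where called, mostly higher in cushion. Of 49 listed, 48 were tested. By edgeR without the block 23 were higher and 0 lower in wild type cushion against ventricle, beside 12.46% and 10.6% of all genes, and 9 and 0 in mutants, beside 6.16% and 3.26%. The wild type count of 23 was 7 without wild type ventricle replicate 2, 9 without wild type cushion replicate 1 and 13 without wild type ventricle replicate 1. The mutant count of 9 was 2 without mutant cushion replicate 1, 4 without mutant ventricle replicate 2 and 16 without mutant cushion replicate 2. Called whichever library was left out were 6 of the 23 (Fkbp10, Fmod, Lum, Postn, Scx and Sox5) and 2 of the 9 (P4ha1 and Postn). With the block the counts were 36 and 1 in wild type, beside 21.2% and 20.1% of all genes, and 24 and 1 in mutants, beside 13.4% and 10.5%. With 1 library left out of the block fit, 27 to 36 were higher in wild type and 17 to 26 in mutants. Of the 16 genes of folding and hydroxylation 10 were higher in wild type cushion, among them Fkbp10, a procollagen chaperone (1.08 ± 0.15, adjusted p = 0.0024), and 3 were higher in mutant cushion, among them P4ha1, a prolyl hydroxylase subunit (0.85 ± 0.13, 0.0058). The 10 became 2 without wild type cushion replicate 1 or wild type ventricle replicate 2 and 5 without wild type ventricle replicate 1, and the 3 became 1 to 5. Of 7 tested genes of procollagen processing 4 were higher in wild type and of 8 receptors 3, and without wild type ventricle replicate 2 both counts were 0. Of 5 crosslinking genes Loxl2, a lysyl oxidase, was higher in wild type, and its call was lost without any 1 of the 4 wild type libraries or either mutant ventricle library (edgeR adjusted p = 0.0501 to 0.224). Of 8 binding partners 3 were higher in wild type, among them Postn, a matricellular protein of valves that also stands in the list of cushion mesenchyme markers (3.38 ± 0.40, adjusted p = 0.0021), and Fmod, a fibril-binding proteoglycan (1.44 ± 0.17, 0.0012). Lum, another such proteoglycan, passed in mutants (3.91 ± 0.50, edgeR adjusted p = 0.0086), though not without mutant cushion replicate 1 (0.0631). Scx, a transcription factor of tendon cells, had a mean of 4.81 ± 1.04 CPM (SD of 2 libraries) in wild type cushion and 0.558 ± 0.118 in wild type ventricle, and Sox5, a factor that drives type II and IX collagen in cartilage, one of 61.7 ± 14.8 and 8.67 ± 2.63.

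In mutant against wild type cushion 0 of the 48 pathway genes were called without the block and 2 with it, both lower, beside 0.569% of all genes: Bmp1, the protease that trims fibrillar procollagens (-0.62 ± 0.11, edgeR adjusted p = 0.0252), and Fmod (-0.69 ± 0.15, 0.0435). Both of these lost the call without either wild type cushion library (0.100 to 0.366), mutant cushion replicate 2 (0.0965 and 0.164) or wild type ventricle replicate 2 (0.0734 and 0.0749), and Fmod without wild type ventricle replicate 1 (0.0550). Over the 48, the block fit called more genes lower without mutant cushion replicate 1 or either mutant ventricle library. Without mutant cushion replicate 2 it called genes in both directions. In ventricle, in the interaction and in the average over tissues 0 of the 48 were called in either fit with all 8 libraries. In the interaction with the block, calls were negative without either mutant cushion library, and in both directions without mutant ventricle replicate 1. In the block fit without mutant ventricle replicate 1, 1 was lower in ventricle and 1 in the average.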

How the data were processed

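Raw counts per gene were deposited by the authors for 8 RNA-seq libraries, 2 in each of 4 groups, in 1 table that was attached to every sample in identical copies. Total RNA was made into stranded libraries after removal of ribosomal RNA, per the labels' protocols. Reads were handled with Bowtie 0.12.7 and build mm9, per the submitters' processing notes. The counting program, its gene models and its strand option stay unnamed (not given in the sources used here), so overlapping and antisense genes cannot be separated.

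For 6 collagens that occur on several rows, as for every symbol, the row of the highest total was used. Totals of 18955733 to 26579215 counts set the precision, and Wilson intervals at 95% cover counting error only. Replicates differed beyond counting noise (chi-square of 43.0 to 111 for each degree of freedom). Counts were tested in R 4.3.3 with edgeR 4.0.16 (TMM, low-count filter, quasi-likelihood test, all 8 libraries in 1 fit without a replicate block, Benjamini-Hochberg adjustment over 14940 genes, threshold 0.05). Alternatives were DESeq2 1.42.0, its size factors, no filter, the other row per symbol, a replicate block with or without correction for GC content and transcript length, and leaving out each library. Leaving out libraries from the block fit was added after seeing the data. Shares over all genes are not given for fits with a library left out. The scripts were tested on simulated counts.

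Same-numbered libraries deviated together in all 6 pairs of groups (r = 0.341 to 0.522 over genes), and principal component 2 (14.1% of variance) split the libraries by number. On this, and not on the labels, the replicate number was used as a pairing, and values of the block fit stand beside results they change.

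Sums and chain ratios were compared by exact permutation tests, two-sided, in which 2 against 2 libraries cannot go below 0.333. Transcript lengths and GC content came from the longest GENCODE transcript of each symbol, and promoter windows from RefSeq on GRCm38.p6. Sequence windows were not used here for Col1a1, Col2a1, Col4a3, Col5a2, Col9a3, Col12a1, Col14a1 and Col22a1.

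Members to name were the most abundant of each class, those called in a genotype contrast, and the largest tissue differences called in both genotypes. Where a genotype contrast called none, the 3 with the smallest p in each direction at a mean of at least 1 CPM were taken. Many have values per library, and others only a range, a maximum, a fold change or the wild type values. Col4a4, Col11a1, Col20a1, Col22a1, Col24a1 and Col27a1 were named after their values were seen, as were members counted at an unadjusted p. The collagen genes and the pathway and marker lists were chosen with earlier results of these data known. Beside the lists in the report, summed markers were 1334 to 1661 CPM in cushions and 1742 to 2251 in ventricles for endothelium, 974 to 1044 and 1182 to 1586 for smooth muscle and pericytes, 191 to 330 and 277 to 314 for epicardium, 81.0 to 159 and 71.9 to 95.3 for leukocytes, 28.2 to 112 and 64.8 to 191 for erythroid cells, and 24.8 to 41.6 and 8.80 to 12.0 for neural crest and neural cells. No marker of these lists was at 0 in every library.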

Additional observations from a re-analysis of the deposited data

How the results depend on the processing

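With the replicate block 24 collagens were higher in wild type cushion than ventricle in place of 15 and 20 in place of 9 in mutant, and with GC content and length corrected as well 23 and 20. Counts of lower collagens were then 7 in wild type and, in mutant, 5 with the block, 6 with both and 1 by DESeq2. In mutant against wild type cushion 5 were lower with the block and 1 with the correction added, and averaged over tissues 1 and 1. The block changed no other count of calls. The summed collagen difference of 1.06 (log2) was 0.60 without Col1a1, Col1a2 and Col3a1 and 0.96 in TMM-scaled CPM, neither at the smallest p. Leaving out 1 library gave 6 to 15 higher and 0 to 3 lower in wild type, 1 to 10 and 0 to 1 in mutant, 0 in the genotype and interaction contrasts, and 0.90 to 1.28 for the sum. In the block fit it gave 22 to 26 (25 without wild type cushion replicate 1) and 1 to 4, 15 to 21 (19 in 4 cases) and 1 to 5, 1 to 13 lower (11 without mutant cushion replicate 1) and 0 to 1 higher in cushion by genotype, 0 to 10 lower for the interaction and 0 to 2 lower for the average. Signs turned 15 times when a library was left out. Ranges were -1.74 to 0.11 for Col1a1 and -1.62 to 0.28 for Col6a3 by genotype in cushion, and -1.28 to 0.022 for Col9a3 in ventricle, where Col7a1 turned to 0.030 in the block fit. For the interaction they were -0.074 to 0.34 for Col25a1, -0.17 to 0.60 for Col8a1 (-0.16 in the block fit) and -0.38 to 1.75 for Col9a1 (-0.32 and -0.38 in other cases, -0.21 and -0.17 in the block fit). The log2 Col4a1 to Col4a2 ratio ran from -0.046 to 0.062 (-0.042 and -0.00398 in other cases). Of the other single-gene and ratio values 775 kept direction and side of the threshold, 75 fell short of it and 45 newly passed. The causes were not tested. The spread between replicates exceeded counting error at this depth (chi-square of 43.0 to 111 for each degree of freedom), so the number of libraries limits the precision.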
